A study of Mus musculus with 12 samples.

Results

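The nuclear import receptors described here are 10 mouse karyopherin genes, taken from the deposited expression table by exact gene symbol out of 53801 gene records: the importin alpha genes Kpna1, Kpna2, Kpna3, Kpna4 and Kpna6, the importin beta gene Kpnb1, the transportin gene Tnpo1, and the importin genes Ipo5, Ipo7 and Ipo9. Each had 1 record, and all 10 were among the 13078 genes that passed the filter on low values. On GRCm38, with the gene bounds of GENCODE M21, Kpna1 (ENSMUSG00000022905) lies on the plus strand at chr16:35978750-36037131, Kpna2 (ENSMUSG00000018362) on the minus strand at chr11:106988629-106999541 and Kpna3 (ENSMUSG00000021929) on the minus strand at chr14:61365211-61439874. Kpnb1 (ENSMUSG00000001440) lies on the minus strand at chr11:97159714-97187881, Tnpo1 (ENSMUSG00000009470) on the minus strand at chr13:98839019-98926384 and Ipo9 (ENSMUSG00000041879) on the minus strand at chr1:135382312-135430499. Kpna4, Kpna6, Ipo5 and Ipo7 are on chromosomes 3, 4, 14 and 7, and all 10 are annotated as protein-coding. RNA was sequenced from RAW264.7, a mouse macrophage-like line derived from a virus-induced tumour, at passages 3 to 5. The cells had received an siRNA against Synbindin (gene Trappc4, a subunit of the TRAPP complex that tethers transport vesicles) or a control siRNA, and each was sampled after 4 h with 100 ng/ml lipopolysaccharide (LPS, a bacterial wall component that activates macrophages) or without LPS. This gave 4 groups of 3 libraries: silenced cells with LPS, control cells with LPS, silenced cells without LPS and control cells without LPS. All 12 libraries come from 1 cell line that had been transfected with siRNA. Nothing in the labels says that libraries of a group came from separate cultures, so p-values measure only the spread between these libraries, which may be technical.

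Proteins bearing a classical nuclear localisation signal are bound by an importin alpha adaptor, which is carried through the nuclear pore by importin beta. Inside the nucleus Ran bound to GTP releases the cargo, and the exportin Cse1l returns importin alpha to the cytoplasm. Transportin and the other importins bind their cargo directly, without an adaptor. In macrophages the traffic includes the NF-kB and IRF transcription factors that enter the nucleus after LPS.

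The genes were included because Kpna1 was lower in silenced cells in the absence of LPS alone. The silenced against control values of the members, and every LPS value of Kpna1, are therefore given as descriptions with no test. The LPS responses of the other 9 members were tested with limma on log2(FPKM + 1), and a gene was called at a Benjamini-Hochberg adjusted p under 0.05 over all 13078 genes. FPKM counts sequenced fragments relative to transcript length and library size, so that levels of different genes can be compared. Fold changes on the log2(FPKM + 1) scale understate the change of low genes. With LPS, Trappc4 was at 5.86, 7.71 and 8.26 FPKM in silenced cells, against 13.8, 15.7 and 9.45 FPKM in control cells. Without LPS it was at 4.35, 7.17 and 6.15 FPKM in silenced cells, against 14.1, 13.1 and 12.5 FPKM in control cells. The silenced libraries were the lower ones at both times, with 56.1% of the control mean remaining with LPS and 44.5% without LPS (two-sided exact permutation p = 0.1 each, the smallest that 3 against 3 libraries allow). The protein-coding gene Rps25 overlaps Trappc4 on the opposite strand and was at 102.8 to 179.7 FPKM. Whether strand was used in quantification is not given, so Trappc4 levels and these percentages are uncertain.

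Depth, estimated roughly from the smallest steps between low values, was 7.36 to 17.6 M fragments a library (M, mega). The group means were 15.2 M in silenced cells with LPS, 11.9 M in control cells with LPS, 11.9 M in silenced cells without LPS and 9.12 M in control cells without LPS. Only 4.38 to 9.14% of low values were whole multiples of the step within 1% of it. Counts could therefore not be recovered, and the depth values are themselves uncertain. Of 11 macrophage marker records, 10 were at 1 FPKM or more in every control library without LPS. In each of the other groups all 11 were. With LPS the summed level of these markers was 2334 to 3071 FPKM in silenced cells and 1755 to 2099 FPKM in control cells. Without LPS it was 2343 to 2796 FPKM in silenced cells and 1696 to 1844 FPKM in control cells. The highest markers weigh most in this sum, and single markers were not compared. Of the markers of other cells, 5 of 5 for B cells, 4 of 5 for T and NK cells, 5 of 5 for fibroblasts and 5 of 5 for epithelium stayed under 1 FPKM in all 12 libraries. The remaining T and NK marker was at 1 FPKM or more in every library of silenced cells with LPS. In bulk RNA, fewer cells of a type and less RNA per cell cannot be told apart.

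RefSeq promoter windows on GRCm38.p6 were at hand for 7 of the 10 members, and those of Kpnb1, Kpna2, Tnpo1, Ipo9 and Ipo5 are shown. They were chosen because, in the deposited FPKM, the first 4 were called lower with LPS in both kinds of cell and Ipo5 in neither. Some of these calls depend on scaling or on single libraries, as given below. Each line gives the 250 bases before the first RefSeq start site listed, 5′ to 3′ on the strand of the gene, with CCAAT on either strand in capitals.
Kpnb1, chr11:97187893-97188142, minus strand: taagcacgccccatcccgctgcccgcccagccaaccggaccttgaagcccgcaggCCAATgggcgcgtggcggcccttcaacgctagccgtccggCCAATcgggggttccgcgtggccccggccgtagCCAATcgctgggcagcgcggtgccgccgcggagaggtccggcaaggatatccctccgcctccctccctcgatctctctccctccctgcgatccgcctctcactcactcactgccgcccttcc
Kpna2, chr11:106999526-106999775, minus strand: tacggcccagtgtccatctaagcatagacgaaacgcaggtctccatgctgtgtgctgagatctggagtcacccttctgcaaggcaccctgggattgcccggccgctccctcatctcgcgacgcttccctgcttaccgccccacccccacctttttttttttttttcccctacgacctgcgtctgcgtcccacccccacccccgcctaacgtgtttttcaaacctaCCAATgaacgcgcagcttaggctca
Tnpo1, chr13:98926385-98926634, minus strand: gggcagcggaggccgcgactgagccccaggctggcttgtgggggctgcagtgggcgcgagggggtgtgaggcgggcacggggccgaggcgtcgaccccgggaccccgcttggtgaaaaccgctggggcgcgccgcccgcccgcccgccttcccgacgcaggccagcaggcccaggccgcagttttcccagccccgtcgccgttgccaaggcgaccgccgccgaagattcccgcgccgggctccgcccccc
Ipo9, chr1:135430500-135430749, minus strand: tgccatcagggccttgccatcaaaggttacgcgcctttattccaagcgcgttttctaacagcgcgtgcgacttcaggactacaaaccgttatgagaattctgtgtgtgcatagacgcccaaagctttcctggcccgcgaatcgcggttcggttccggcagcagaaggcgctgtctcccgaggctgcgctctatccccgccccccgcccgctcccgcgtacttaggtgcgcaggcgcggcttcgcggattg
Ipo5, chr14:120910944-120911193, plus strand: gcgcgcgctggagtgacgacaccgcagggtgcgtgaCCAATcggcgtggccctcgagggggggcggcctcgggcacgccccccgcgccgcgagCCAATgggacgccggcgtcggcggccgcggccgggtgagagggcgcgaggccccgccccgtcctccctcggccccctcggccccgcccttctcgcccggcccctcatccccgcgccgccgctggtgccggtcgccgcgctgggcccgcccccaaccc

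CCAAT was found 3 times in the Kpnb1 window and 1 time in the Kpna2 window. It was also found 2 times each in the first Ipo5 window and the Kpna4 window, of genes not called lower. The Ipo7 window and the second windows of Tnpo1 and Ipo5 held 0. The first windows of Tnpo1 and Ipo9 held none, although a second Ipo9 start, 8 bases further into the gene, brought 1 copy into its window. At least 1 CCAAT was present on either strand in 33.9% of 32851 RefSeq promoters of that length. GGGCGG occurred 2 times in the Kpnb1 window, 1 time in that of Kpna2 and 4 times in the first Tnpo1 window. Ipo9 had 2 copies in each of its windows, and Ipo5 had 4 in its first. The Kpna4 window held 1, while the Ipo7 window and the second windows of Tnpo1 and Ipo5 held 0. At least 1 was present in 32.7% of all promoters. The windows shown were 57.6% (Kpna2) to 82.4% (Ipo5) G or C, and promoters of like G and C content were not compared. TGACGTCA, present in 1.55% of all promoters, was in none of the 10 member windows. The NF-kB motif, present in 7.25% of promoters, was found only in the second Tnpo1 window, where both strands match at 1 overlapping place. Motif matches describe these letters and show no binding.

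Kpna3, an adaptor that in human cells carries NF-kB subunits among other cargo, was at 107, 104 and 121.6 FPKM in silenced cells with LPS, against 44.1, 41.7 and 44.9 FPKM in silenced cells without LPS. Kpna3 in control cells was at 107, 103 and 123.5 FPKM with LPS, against 39.1, 42.1 and 42.9 FPKM without LPS. Every LPS library lay above every library without LPS. Kpna3 mean FPKM was 2.55-fold higher with LPS in silenced cells (log2 fold change 1.33 ± 0.09 SE, limma adjusted p = 3.38e-07) and 2.69-fold higher in control cells (log2 fold change 1.40 ± 0.09, adjusted p = 2.75e-07).

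Kpna2, an adaptor that is abundant in dividing cells, moved the other way. It was at 50.8, 49.3 and 42.3 FPKM in silenced cells with LPS, against 79.2, 81.7 and 82.1 FPKM in silenced cells without LPS. Kpna2 in control cells was at 62.6, 58.2 and 52.6 FPKM with LPS, against 72.6, 81.0 and 87.0 FPKM without LPS. The groups did not overlap in either kind of cell, and Kpna2 fell by 0.76 ± 0.10 on the log2 scale in silenced cells (limma adjusted p = 5.2e-05) and by 0.46 ± 0.10 in control cells (adjusted p = 0.00187). Kpna2 levels are uncertain because 62.6% of its 50-base stretches of transcript also occur in other annotated genes, chiefly Gm10184 and the processed pseudogene Gm10259. Those copies were at 16.7 and 17.6 FPKM on average in silenced cells with LPS, against 28.6 and 31.0 FPKM in silenced cells without LPS. In control cells they were at 19.9 and 21.1 FPKM with LPS, against 27.5 and 29.9 FPKM without LPS. The sum of Kpna2 and both copies averaged 81.8 ± 7.83 FPKM with LPS and 140.6 ± 10.9 FPKM without LPS in silenced cells (SD, n = 3 each). In control cells the sum averaged 98.8 ± 9.07 FPKM with LPS and 137.6 ± 11.8 FPKM without LPS. The sum was thus also lower with LPS, and its groups did not overlap.

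Kpna1, one of the adaptors, had the lowest level of the 10 members in silenced cells without LPS. With LPS it was at 11.3, 11.4 and 11.4 FPKM in silenced cells, against 11.5, 11.4 and 12.96 FPKM in control cells. Without LPS it was at 6.57, 6.67 and 6.54 FPKM in silenced cells, against 13.8, 14.7 and 15.5 FPKM in control cells. With LPS the silenced and control libraries overlapped (log2 fold change -0.06 ± 0.08), whereas without LPS they were far apart, with silenced cells at 45.0% of the control mean (log2 fold change -1.04 ± 0.08). Both values are descriptions, since this pattern chose Kpna1. LPS libraries of silenced cells were all above those without LPS (log2 fold change 0.70 ± 0.08), and LPS libraries of control cells were all below those without LPS (log2 fold change -0.28 ± 0.08). The control decrease depends on scaling, at -0.06 after median-ratio scaling. The summed macrophage marker level was higher in silenced cells both with LPS, where the Kpna1 groups overlapped, and without LPS, where they did not, and the part of these markers was not tested. No 50-base stretch of Kpna1 occurred in another gene. The antisense gene Gm15564 overlaps it and was at 23.0 FPKM in the second control library without LPS and at most 0.27 FPKM in the other 11, while Kpna1 in that library was the middle value of its group. The libraries were strand-specific, and whether strand was used in quantification is not given in the sources used here.

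Kpna4 and Kpna6, the remaining adaptors, were not called for LPS in the FPKM as deposited. Kpna4 was at 13.1, 11.4 and 13.7 FPKM in silenced cells with LPS, against 11.1, 10.3 and 10.8 FPKM in silenced cells without LPS (log2 fold change 0.23, limma adjusted p = 0.154). Kpna4 in control cells was at 10.8, 11.1 and 13.02 FPKM with LPS, against 11.9, 8.61 and 11.6 FPKM without LPS (0.12, adjusted p = 0.454). Kpna6 was at 12.04, 10.3 and 10.2 FPKM in silenced cells with LPS, against 13.5, 12.5 and 11.6 FPKM in silenced cells without LPS (-0.19, adjusted p = 0.0943). Kpna6 in control cells was at 12.2, 11.9 and 11.6 FPKM with LPS, against 12.4, 12.8 and 13.6 FPKM without LPS (-0.11, adjusted p = 0.312). Other settings brought calls for both. Kpna4 was called higher after median-ratio scaling (log2 fold change 0.48, limma adjusted p = 0.00885 in silenced and 0.34, adjusted p = 0.0484 in control cells) and, in silenced cells, after quantile normalization (0.43, adjusted p = 0.0184). Kpna6 was called lower in silenced cells with a common sum of FPKM (-0.25, adjusted p = 0.0494) and without the first silenced library with LPS (-0.26, adjusted p = 0.0357). Over all 12 libraries Kpna4 ranged from 8.61 to 13.7 FPKM and Kpna6 from 10.2 to 13.6 FPKM.

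**Figure D1:**
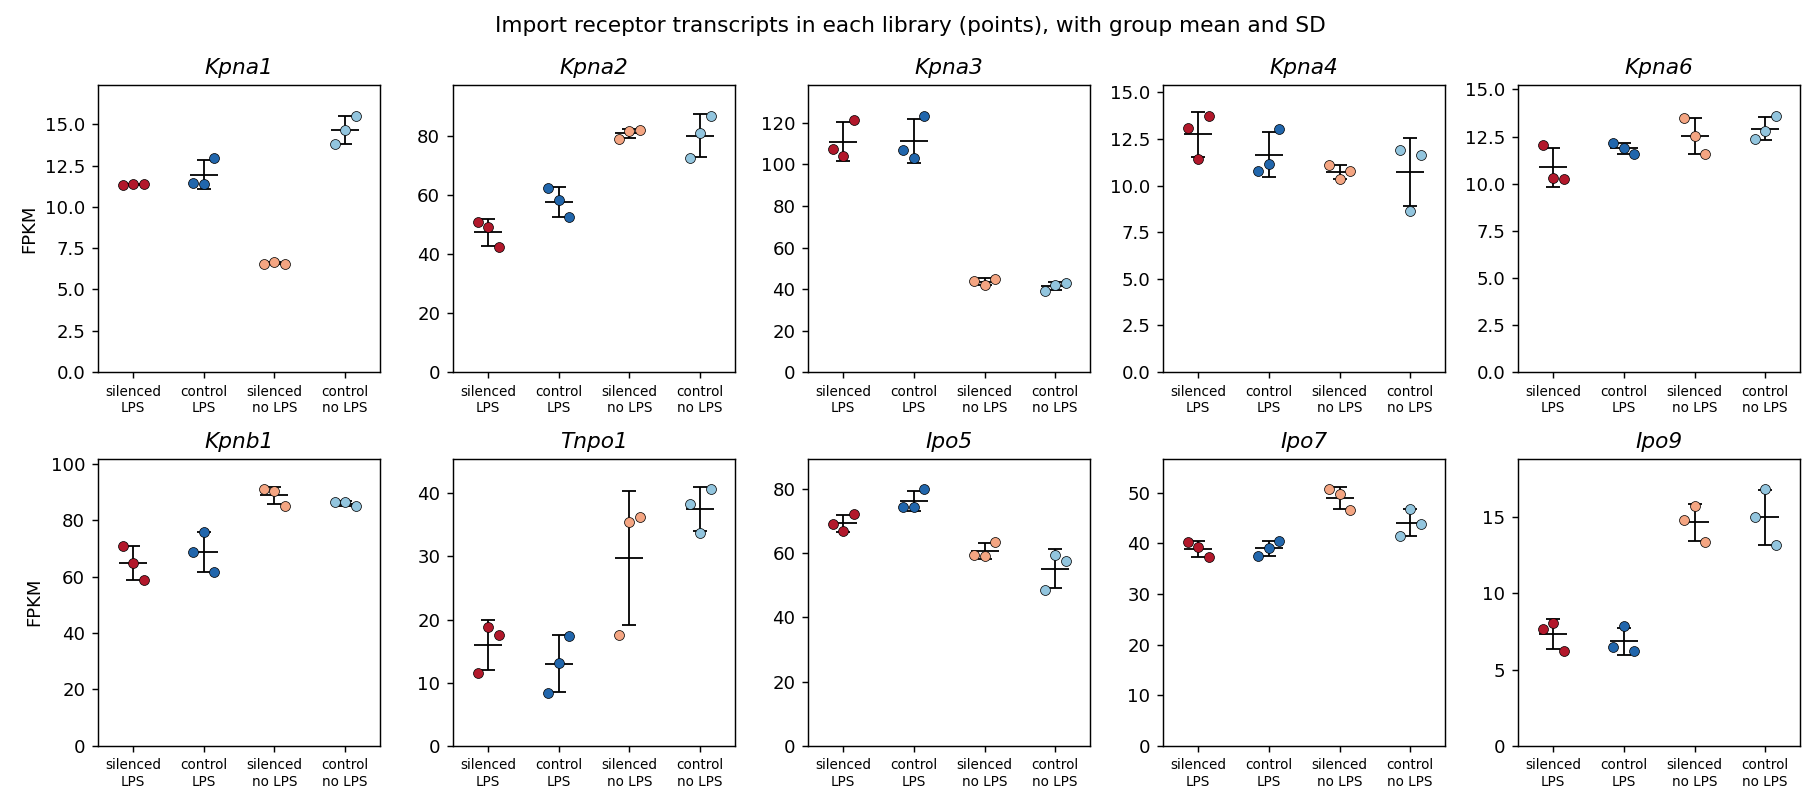
FPKM of the 10 import receptor genes in each of the 12 libraries (points, y axis from 0, a different range for each gene), with the group mean and SD, in silenced and control cells with LPS and without LPS. Kpna3 libraries with LPS lie at 103 to 123.5 FPKM and those without LPS at 39.1 to 44.9 FPKM, and Kpna1 lies at 6.54 to 6.67 FPKM in silenced cells without LPS, under all other libraries.

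By FPKM the most abundant adaptor transcript was Kpna3 with LPS and Kpna2 without LPS. Of the summed FPKM of the 5 importin alpha genes, Kpna3 made up 57.3 ± 3.22% in silenced cells with LPS and 28.2 ± 0.81% in silenced cells without LPS, and 54.3 ± 3.02% in control cells with LPS and 25.9 ± 0.69% in control cells without LPS (SD, n = 3 each). Kpna2 made up 24.6 ± 2.92% in silenced cells with LPS and 52.5 ± 1.09% in silenced cells without LPS, and 28.3 ± 3.26% in control cells with LPS and 50.1 ± 1.43% in control cells without LPS. The groups did not overlap for either share, which is given as a description because the sum holds Kpna1. Set against the sum of Kpna2 and its 2 copies, Kpna3 was higher in silenced cells with LPS, where that sum was 87.05, 85.5 and 72.8 FPKM. In control cells with LPS the sum was 105.7, 102.2 and 88.5 FPKM and overlapped Kpna3. Without LPS Kpna3 was under the sum in every library. Kpna1 made up 5.88 ± 0.21% in silenced cells with LPS, 5.84 ± 0.22% in control cells with LPS, 4.27 ± 0.09% in silenced cells without LPS and 9.18 ± 0.07% in control cells without LPS.

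**Figure D2:**
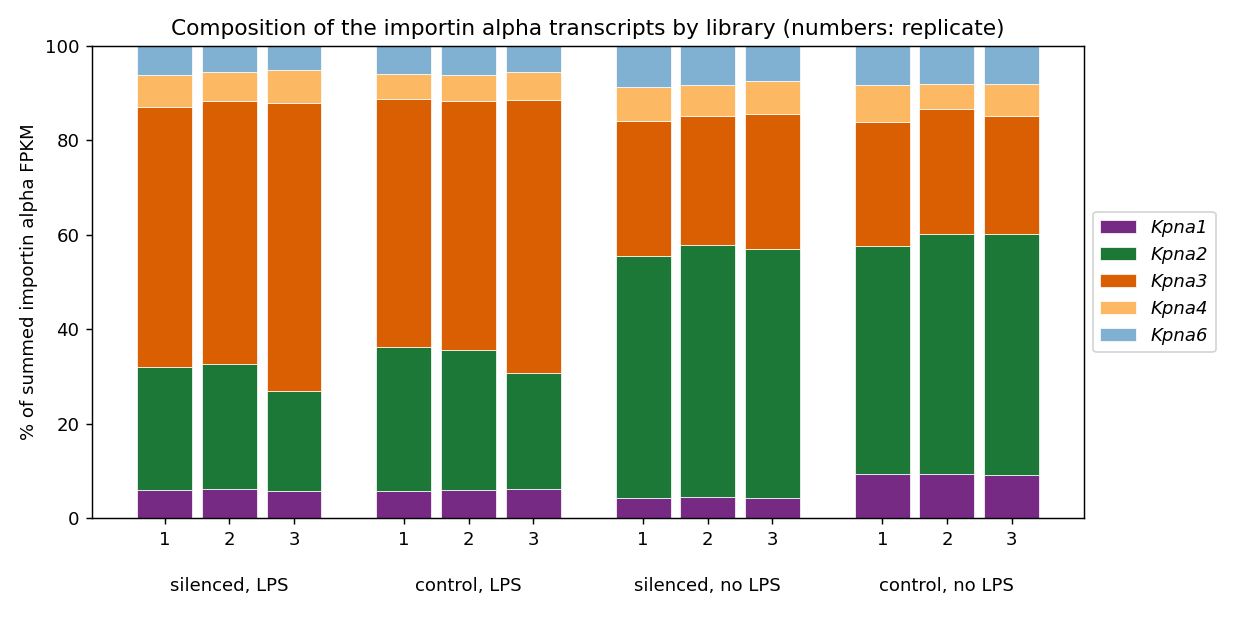
Share of the summed importin alpha FPKM held by each of 5 genes (y axis, percent) in each library (bars), grouped by siRNA and LPS. Kpna3 is the widest band in the 6 libraries with LPS, at 52.5 to 61.03%, and Kpna2 is the widest in the 6 libraries without LPS, at 48.4 to 53.4%.

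Of the 5 carrier genes, 4 fell with LPS in silenced cells and 3 in control cells, where 35.5% and 32.9% of all genes were called lower. After median-ratio scaling of the libraries 1 (Ipo9) was called lower in silenced cells and 2 (Tnpo1 and Ipo9) in control cells. Of all 13078 genes, 2824 and 2853 were called lower under that scaling. Kpnb1, the carrier that pairs with all importin alpha adaptors, was at 71.0, 64.8 and 59.0 FPKM in silenced cells with LPS, against 91.0, 90.3 and 85.3 FPKM in silenced cells without LPS. Kpnb1 in control cells was at 68.7, 75.7 and 61.6 FPKM with LPS, against 86.4, 86.4 and 85.1 FPKM without LPS. Every library with LPS was below every library without LPS. Kpnb1 fell by 0.45 ± 0.09 on the log2 scale in silenced cells (limma adjusted p = 0.0013) and by 0.33 ± 0.09 in control cells (adjusted p = 0.00975).

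Ipo9, a carrier of histones H2A and H2B, was at 7.69, 8.08 and 6.19 FPKM in silenced cells with LPS, against 14.8, 15.7 and 13.4 FPKM in silenced cells without LPS. Ipo9 in control cells was at 6.48, 7.86 and 6.23 FPKM with LPS, against 14.98, 16.8 and 13.2 FPKM without LPS. The groups were well apart, with means of 7.32 FPKM with LPS and 14.6 FPKM without LPS in silenced cells (log2 fold change -0.92 ± 0.12, limma adjusted p = 9.67e-05) and of 6.86 FPKM with LPS and 14.99 FPKM without LPS in control cells (-1.02 ± 0.12, adjusted p = 4.51e-05).

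Tnpo1, a carrier of RNA-binding proteins with a proline-tyrosine signal, was at 11.5, 18.9 and 17.5 FPKM in silenced cells with LPS, against 17.5, 35.5 and 36.3 FPKM in silenced cells without LPS. Tnpo1 in control cells was at 8.41, 13.1 and 17.4 FPKM with LPS, against 38.3, 33.7 and 40.6 FPKM without LPS. The control groups were apart, while the first silenced library without LPS reached down among the silenced libraries with LPS. Tnpo1 fell by 1.51 ± 0.30 on the log2 scale in control cells (limma adjusted p = 0.00139). In silenced cells it fell by 0.82 ± 0.30 (adjusted p = 0.0394), a call that was lost in 10 of 21 other settings (adjusted p 0.051 to 0.167), among them leaving out silenced replicate 2 (0.133) or 3 (0.135) without LPS, silenced replicate 1 (0.143) or 3 (0.06) with LPS, or control replicate 1 without LPS (0.051). Of the 50-base stretches of Tnpo1, 10.7% also occur in other annotated genes, chiefly the processed pseudogene Gm6493. The pseudogene Gm5453 lies on the opposite strand of Tnpo1 and varied from 12.4 to 61.9 FPKM between libraries. Tnpo1 levels are therefore uncertain.

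Ipo5 and Ipo7, carriers of ribosomal proteins and histones, differed from each other. Ipo5 was at 69.0, 66.8 and 72.1 FPKM in silenced cells with LPS, against 59.4, 59.0 and 63.3 FPKM in silenced cells without LPS. Ipo5 in control cells was at 74.5, 74.3 and 79.8 FPKM with LPS, against 48.4, 59.6 and 57.6 FPKM without LPS. It rose in control cells (log2 fold change 0.46 ± 0.08, limma adjusted p = 0.000778), and in silenced cells the change was 0.19 ± 0.08 and was not called (adjusted p = 0.0806), although leaving out the first control library without LPS (adjusted p = 0.0401) or median-ratio scaling (0.47, adjusted p = 0.00184) brought a call. Ipo7 was at 40.2, 39.2 and 37.2 FPKM in silenced cells with LPS, against 50.7, 49.7 and 46.5 FPKM in silenced cells without LPS. Ipo7 in control cells was at 37.4, 39.1 and 40.5 FPKM with LPS, against 41.5, 46.9 and 43.8 FPKM without LPS. It fell by 0.32 ± 0.07 in silenced cells (adjusted p = 0.00281), and in control cells the value was -0.17 (adjusted p = 0.0693). In control cells it was called lower with a common sum of FPKM (-0.20, adjusted p = 0.0451) and after quantile normalization (-0.34, adjusted p = 0.00271).

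Of the 9 members tested, 1 rose and 5 fell with LPS in silenced cells, where 13.0% of all genes tested were called higher and 35.5% lower. In control cells 2 rose and 4 fell, where 15.3% of all genes were called higher and 32.9% lower. With 48.5% of all genes called in silenced cells and 48.2% in control cells, the 6 of 9 members called in each was not far from the background. The median log2 fold change over all genes was itself -0.21 in silenced and -0.17 in control cells. Relative to it Kpna3 was at 1.54 and 1.58, Ipo9 at -0.70 and -0.85, Tnpo1 at -0.61 and -1.34, Kpna2 at -0.55 and -0.29, Kpnb1 at -0.24 and -0.15, and Ipo7 at -0.11 and 0.00. Ipo5 was at 0.40 and 0.64, Kpna4 at 0.44 and 0.29, and Kpna6 at 0.02 and 0.06. Median-ratio scaling, which moves that median to 0.02 in both kinds of cell, ended the calls of Kpnb1 in both (adjusted p = 0.093 in silenced and 0.363 in control cells), of Kpna2 in control cells (0.0541), and of Ipo7 (0.628) and Tnpo1 (0.167) in silenced cells. It brought calls of higher levels for Kpna4 in both kinds of cell and for Ipo5 in silenced cells. The calls of Kpna3 and Ipo9 in both kinds of cell, of Kpna2 in silenced cells, and of Ipo5 and Tnpo1 in control cells held in all 21 other settings.

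**Figure D3:**
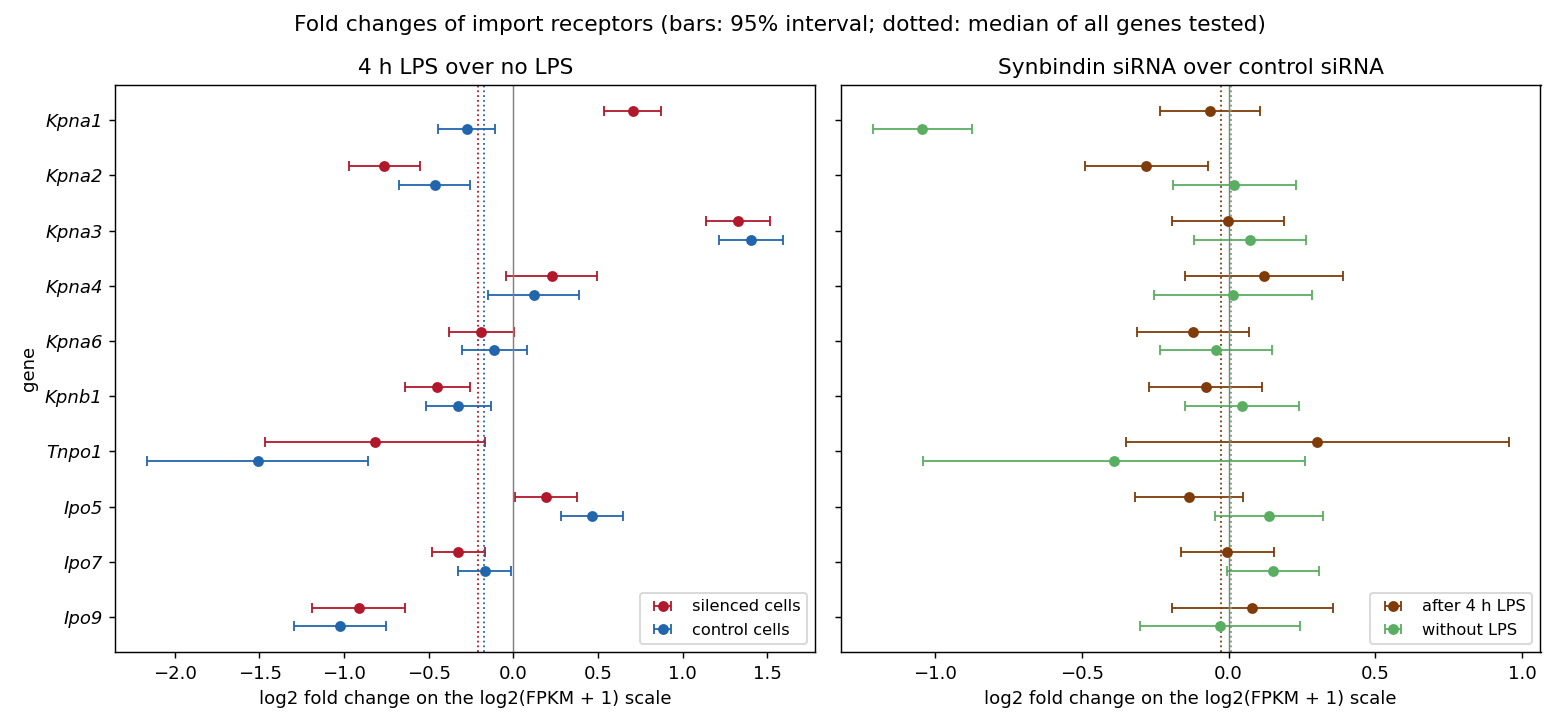
Log2 fold changes of the 10 members on the log2(FPKM + 1) scale with 95% intervals (x axis) for LPS over no LPS in silenced and control cells on the left, and for Synbindin siRNA over control siRNA with LPS and without LPS on the right. Dotted lines mark the median of all 13078 genes. The intervals on the right, and those of Kpna1 on the left, are descriptions with no test. Kpna1 at -1.04 without LPS is the one member far from 0 on the right.

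Kpna1 was chosen for its difference between silenced and control cells without LPS, so the smaller differences of the other 9 members are only described. Across all genes, 0.719% were called in silenced against control cells with LPS and 0.214% without LPS, and nothing is read from the members against these shares because this contrast chose them. With LPS the other 9 members lay between -0.28 (Kpna2) and 0.30 (Tnpo1) on the log2 scale. Without LPS they lay between -0.39 (Tnpo1) and 0.15 (Ipo7), and silenced and control libraries overlapped for each of them, where 18.2% of all genes did not overlap. Kpna2 and Ipo5 (log2 fold change -0.13) were the members whose silenced libraries with LPS all lay below the control libraries with LPS, a separation that 11.3% of all genes showed in that direction. The difference between the LPS changes, silenced minus control, was 0.98 ± 0.11 for Kpna1, 0.69 ± 0.42 for Tnpo1, -0.30 ± 0.14 for Kpna2 and -0.27 ± 0.12 for Ipo5 (log2 scale, SE).

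In order of level, Kpna3 led both groups with LPS and did not overlap the next gene, Ipo5. Ipo5 overlapped Kpnb1, and Ipo9 was last in both groups, below its neighbour in every library. Without LPS, Kpnb1 and Kpna2 led in both silenced and control cells, overlapping in control cells alone, and were followed by Ipo5, Ipo7, Kpna3 and Tnpo1. The 4 lowest genes without LPS were Ipo9, Kpna6, Kpna4 and Kpna1 in silenced cells and Ipo9, Kpna1, Kpna6 and Kpna4 in control cells. Summed over the 5 adaptor genes, the level averaged 193.4 ± 6.38 FPKM with LPS and 154.4 ± 1.45 FPKM without LPS in silenced cells. In control cells it averaged 204.6 ± 8.86 FPKM with LPS and 159.9 ± 10.5 FPKM without LPS. The 5 carrier genes summed to 196.4 ± 3.89 FPKM with LPS and 242.8 ± 8.63 FPKM without LPS in silenced cells. In control cells they summed to 203.7 ± 7.49 FPKM with LPS and 237.7 ± 7.22 FPKM without LPS. The ratio of summed adaptors to Kpnb1 was 3.00 ± 0.34 with LPS and 1.74 ± 0.08 without LPS in silenced cells, and 3.01 ± 0.44 with LPS and 1.86 ± 0.14 without LPS in control cells (SD, n = 3 each). These sums and ratios did not overlap between libraries with LPS and without LPS. They are descriptions, with no test. The ratio does not depend on library scaling, but the carrier sum does. After median-ratio scaling, an alternative for the sums chosen after seeing the data, it averaged 215.4 ± 0.65 with LPS and 219.1 ± 7.58 without LPS in silenced cells, and 217.1 ± 10.03 with LPS and 214.9 ± 9.31 without LPS in control cells. The adaptor sum was then 212.3 ± 10.9 with LPS and 139.3 ± 2.88 without LPS in silenced cells, and 218.2 ± 14.4 with LPS and 144.6 ± 10.9 without LPS in control cells.

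The 5 genes whose log2(FPKM + 1) followed Kpna1 most closely over the 12 libraries were Ankrd17 (Pearson r = 0.886), Szrd1 (0.872), Gm12034 (0.867), Gm48632 (0.839) and AI506816 (0.808). Those closest to Kpna2 were Osbpl2 (0.987), Cnot9 (0.985), Kif23 (0.985), Ncapg (0.984) and Tgfbr1 (0.984). These correlations describe libraries that share the 4 groups and carry no test.

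For the lists that follow, 35.5% of all genes tested were called lower with LPS and 13.0% higher in silenced cells, and 32.9% lower and 15.3% higher in control cells. The background differs after median-ratio scaling. Of 13078 genes, 2824 were then called lower and 2975 higher in silenced cells, and 2853 lower and 3215 higher in control cells. Of 7 exportin genes tested, 6 fell and 0 rose in both silenced and control cells (median log2 fold change -0.51 in silenced and -0.47 in control cells), and after median-ratio scaling 4 fell and 1 rose in each. Xpo1, the exporter of leucine-rich export signals, averaged 17.3 ± 2.32 FPKM with LPS and 43.2 ± 1.43 FPKM without LPS in silenced cells (SD, n = 3 each). In control cells it averaged 17.4 ± 2.02 FPKM with LPS and 39.5 ± 2.33 FPKM without LPS. Xpo1 fell in both (log2 fold change -1.28, limma adjusted p = 2.59e-06 in silenced and -1.14, adjusted p = 6.91e-06 in control cells). Xpo7 also fell (-0.91 in silenced and -0.81 in control cells), as did Cse1l, which returns importin alpha to the cytoplasm (-0.63 and -0.47), and the tRNA exporter Xpot (-0.51 in each). Xpo6, an actin exporter, was the exportin gene not called in either.

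Of 11 genes listed under the Ran cycle, 7 fell in silenced cells and 4 in control cells (medians -0.58 and -0.31), and 0 rose. The 4 in control cells were Ranbp3, Ranbp9, Ranbp10 and Rcc2, while Ran, Rcc1 and Rangap1 were among those not called there. After median-ratio scaling 3 fell and 2 rose in silenced cells and 4 fell and 2 rose in control cells. Ranbp10 (-0.84 in silenced and -0.94 in control cells) and Ranbp3, an exportin cofactor (-0.68 and -0.52), fell in both, as did Rcc2 (-0.53 and -0.58). Ranbp1, a Ran-binding protein, fell in silenced cells (-0.76, limma adjusted p = 0.0124) and was at -0.48 in control cells (adjusted p = 0.0878). Ran itself was at -0.04 in silenced and 0.10 in control cells and was not called. Of 30 nucleoporin genes tested, 21 fell and 0 rose in silenced cells and 20 fell and 1 rose in control cells (medians -0.53 and -0.46). After median-ratio scaling 12 were lower and 2 higher in silenced and 9 lower and 1 higher in control cells. Nup155 (-1.05 and -0.91) and Nup210 (-0.99 and -1.07) were among those that fell, as was Aaas (-0.69 and -0.78). The central channel gene Nup62 had the largest change of the list in silenced cells, where it fell by 1.68 (limma adjusted p = 0.0132), and was not called in control cells (-0.91, adjusted p = 0.141). Nup62 spread widely with LPS, from 8.96 to 27.5 FPKM in silenced and 8.28 to 40.6 FPKM in control cells. The gene that rose in control cells was Sec13, which is also a subunit of the COPII vesicle coat (0.59, limma adjusted p = 0.00378).

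Of the other import receptors, 7 of 8 were tested, Kpna7 being at or below 0.03 FPKM in every library. In silenced cells 3 fell (Ipo13, Ipo11 and Ipo8) and 0 rose, and in control cells 3 fell (Ipo8, Tnpo2 and Ipo13) and 2 rose (Tnpo3 and Ipo4). The list medians of -0.31 and -0.23 became -0.05 and -0.01 after median-ratio scaling, where 0 fell and 1 rose in silenced and 1 fell and 2 rose in control cells. Tnpo3, the carrier of serine-arginine splicing factors, averaged 14.5 ± 2.59 FPKM with LPS and 14.9 ± 1.65 FPKM without LPS in silenced cells, and 22.8 ± 3.33 FPKM with LPS and 14.8 ± 1.76 FPKM without LPS in control cells (SD, n = 3 each). It rose in control cells (log2 fold change 0.59, limma adjusted p = 0.00565) and was at -0.04 in silenced cells (adjusted p = 0.824), and the difference between the 2 changes was not called (-0.64 ± 0.21, adjusted p = 0.306).

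Of 12 genes for transcription factors that enter the nucleus through import receptors, 9 rose and 2 fell in silenced cells, where Irf3 and Rela were the lower ones, and 9 rose and 0 fell in control cells (medians 1.89 and 1.76). After median-ratio scaling 9 rose in silenced and 10 in control cells with 0 lower in either. The largest changes were those of Irf1 (2.86 in silenced and 2.54 in control cells), Irf7 (2.82 and 1.90) and Nfkb2 (2.81 and 2.69) in silenced cells, and of Nfkb2, Irf1 and Nfkb1 in control cells. Nfkb1, encoding the precursor of the p50 subunit of NF-kB, averaged 96.6 ± 2.43 FPKM with LPS and 17.9 ± 0.17 FPKM without LPS in silenced cells, and 94.6 ± 3.40 FPKM with LPS and 17.8 ± 1.26 FPKM without LPS in control cells (SD, n = 3 each). Cell division genes, listed because Kpna2 is known as a gene of dividing cells, fell in 20 of 20 cases in silenced cells and 19 of 20 in control cells (medians -1.21 and -0.96), and in 19 and 15 after median-ratio scaling. Mki67 averaged 44.8 ± 16.9 FPKM with LPS and 168.3 ± 12.5 FPKM without LPS in silenced cells, and 55.8 ± 7.75 FPKM with LPS and 195.6 ± 30.9 FPKM without LPS in control cells. The mitotic genes Kif11 (-1.89 and -1.67) and Plk1 (-1.55 and -1.43) followed it in size of change. The part of cell division genes in the lower Kpna2 level was not tested. For the silencing comparisons, limma called 0 of the 87 tested genes of these 6 lists with LPS, where 13 had an unadjusted p under 0.05, and 0 without LPS, where 7 did. Of all 13078 genes 0.719% were called with LPS and 0.214% without LPS, and 1697 and 1565 had an unadjusted p under 0.05.

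**Figure D4:**
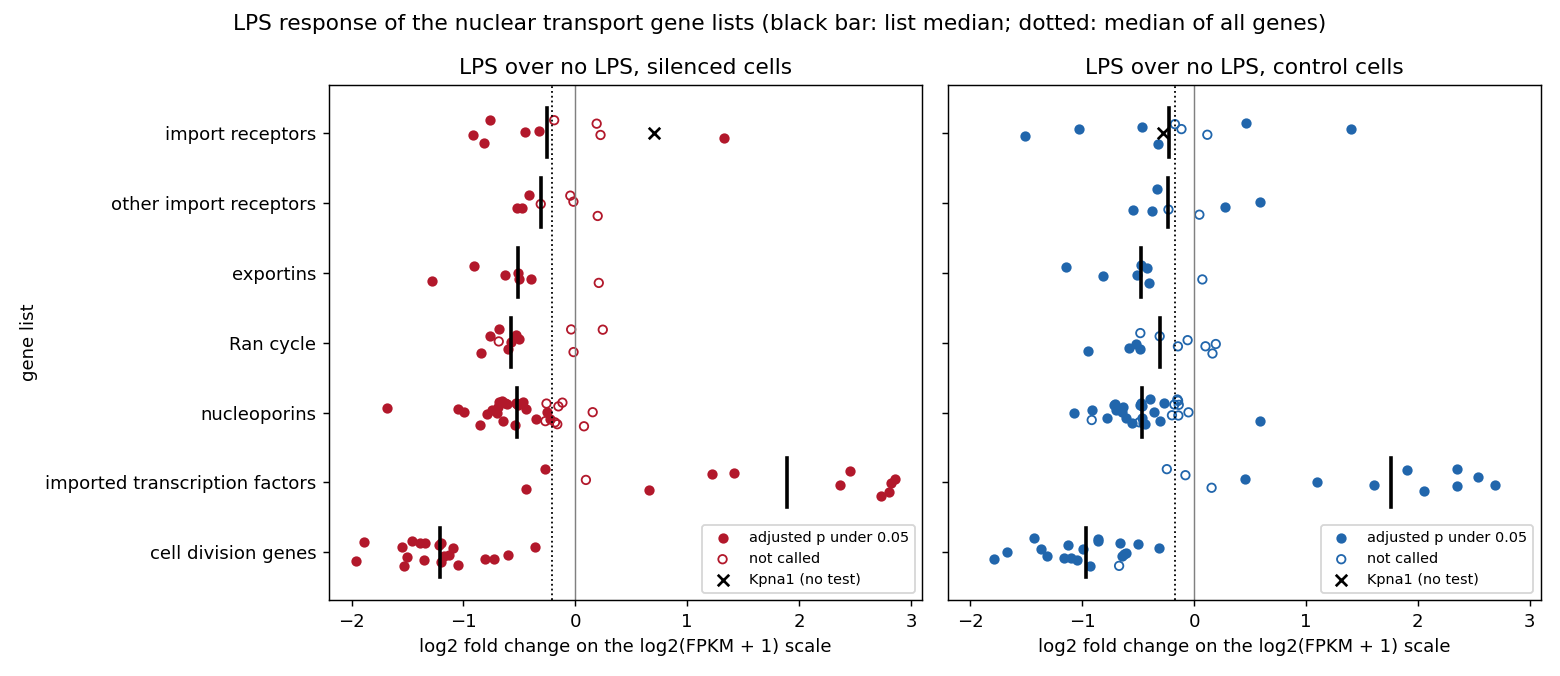
Log2 fold change for LPS over no LPS (x axis) of each gene (points) in the import receptor list and 6 further lists, in silenced cells on the left and control cells on the right. Filled points have an adjusted p under 0.05, the cross is Kpna1, black bars are list medians and the dotted line is the median of all genes. Exportin medians lie at -0.51 and -0.47, and import receptor medians at -0.26 and -0.22, near the dotted lines at -0.21 and -0.17.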

How the data were processed

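The 12 libraries were mapped to 4 groups by their titles. The deposited table holds FPKM per gene; HISAT2, StringTie and the build GRCm38 are named in the submitters' processing notes, with roles, versions and settings not given in the sources used here. FPKM values were taken as deposited by the authors, filtered to genes at 1 FPKM or more in at least 3 libraries (13078 of 53801 records), and fitted as log2(FPKM + 1) with limma 3.58.1 in R 4.3.3 (group means over all 12 libraries, trended variance, 95% intervals, Benjamini-Hochberg adjustment). The procedure was tested on simulated data. Trappc4 was tested with two-sided exact permutation tests in scipy 1.17.1; shares, sums and ratios of members carry no test. Because FPKM is relative to each library's total, changes are relative too. Sharing of 50-base stretches used GENCODE M21 transcripts; promoters came from RefSeq, GRCm38.p6.

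The members and gene lists were chosen with earlier results of these data known. From each list and comparison the genes named are up to 3 called genes with the largest change. Ran, Rcc1, Rangap1, Ranbp9, Xpo6, Sec13, Rela, Irf3, Ipo4 and Kpna7 were named after their values were seen, for their role or because a count was 5 or fewer. Nup58 and Nup42 stand in the table under their older symbols Nupl1 and Nupl2, which the list holds. Alternatives were another pseudocount, no filter or a stricter one (5 FPKM), 3 scalings, a replicate block, a fit of the 6 libraries compared alone, a depth covariate and leaving out each library; those that changed a result are given at the end.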

Additional observations from a re-analysis of the deposited data

Results flagged for a closer look

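The difference between the LPS changes of Kpna1, silenced minus control cells, was 0.98 on the log2 scale. Every silenced library with LPS lay above every silenced library without LPS, whereas every control library with LPS lay below every control library without LPS. Kpna1 was chosen for this pattern, so the difference is a description and was not tested.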

How the results depend on the processing

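Of 378 values of the 9 tested members for LPS recomputed under 21 other settings, 0 reversed a call, 14 lost one (10 of them Tnpo1 in silenced cells) and 9 gained one. After median-ratio scaling 3 of the 9 tested members were called higher and 2 lower in silenced cells, and 3 higher and 2 lower in control cells. After quantile normalization 2 were called higher and 4 lower in silenced cells, and 2 higher and 5 lower in control cells. Kpna6 changed sign under both scalings, Ipo7 in control cells under median-ratio scaling, and Kpna4 in control cells without the second control library without LPS; none of these was called. The share of LPS calls that were higher, 26.8% in silenced and 31.7% in control cells, was 51.3% and 53.0% after median-ratio scaling and 40.2% and 42.6% after quantile normalization. Leaving out 1 library gave 1 to 2 members higher and 4 to 5 lower in silenced cells, and 2 higher and 4 lower in control cells.

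The number of all genes called for silencing was unstable, and the cause was not tested. With LPS it was 94, against 38 after quantile normalization, 0 with only the 6 libraries compared (limma, 1622 genes at an unadjusted p under 0.05), 18 with estimated depth as a covariate (added after seeing the data) and 10 to 91 when 1 library was left out. Without LPS it was 28, against 6 with only the 6 libraries compared, 9 with the depth covariate and 3 to 41 when 1 library was left out. With the replicate number as a block 48 genes were called without LPS; same-numbered libraries correlated above 0.1 in 3 of 18 pairs (-0.03 to 0.19) and 11 of 18 correlated best with their own number, so the numbers were not taken as pairs. The Kpna1 value without LPS was between -1.14 and -1.004 over these settings. It is a description with no test, because this value chose Kpna1. Depth limits the precision of the lowest members, and no counting interval could be given.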
